A study of Homo sapiens with 16 samples.

Results

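OCT1 and DNMT3B were set side by side in MCF10CA1a cells that had received the vehicle, ethanol, alone. The regions described are the peaks of the deposited vehicle lists for OCT1 and for DNMT3B, counted once per peak identifier and kept whole down to the lowest listed pileup of 11 reads. Together they held 98042 of the 118439 peaks of the series, namely 82187 OCT1 peaks and 15855 DNMT3B peaks. A peak was called shared where at least 1 of its bases also lay in a peak of the other antibody, and otherwise OCT1-specific or DNMT3B-specific.

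MCF10CA1a is a human breast cancer line. It descends from MCF10A mammary epithelial cells that were made tumorigenic with an active Harvey-ras gene and passed through xenografts in mice, and the study describes it as poorly differentiated and invasive. Chromatin was fixed with formaldehyde, sheared and recovered with a mouse antibody against OCT1 or with a rat antibody against DNMT3B, and the recovered DNA was sequenced (ChIP-seq). Each antibody had 3 biological replicates and 1 input library in vehicle-treated cells, so that 6 of the 16 libraries of the series were ChIP libraries of this comparison. The remaining lists came from cells given 7 µM pterostilbene (PTS), a dietary stilbenoid, for 9 days, and are used only to see which vehicle peaks came back. The depositors describe the vehicle lists as enriched in control. Each deposited fold in them is (pileup + 1) / (background + 1) with 1 background value per list, so no value of PTS-treated cells enters the fold. The sources used here do not say how the label bears on which peaks were listed, and the lists are taken as peaks of vehicle-treated cells. Because the replicates were pooled when peaks were called, each region has 1 value per antibody, no replicate error and no test, and all intervals given are 95% intervals for counting error only. Reads are not independent molecules, so these intervals are the narrowest that apply.

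OCT1, the product of *POU2F1*, is a widely expressed transcription factor whose POU domain reads an 8-base motif, the octamer ATGCAAAT, best known from the promoters of histone H2B and small nuclear RNA genes. DNMT3B is a de novo DNA methyltransferase: it adds methyl groups to cytosines of CpG pairs that carried none, and it is known for methylating satellite repeats and germline genes. Its targeting is usually described through chromatin marks.

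The sequences that the comparison turns on are shown for the 120 bases around the summit, on the plus strand of GRCh37, in lower case. In the first group capitals mark uninterrupted runs of at least 12 bases, of GA/TC in PAXBP1 and of CA/TG in the other sequences. They are shown because such runs were more frequent in strong DNMT3B-specific peaks than in strong peaks of the other classes. MTERF1, KCND2 and PAXBP1 are DNMT3B-specific peaks at chr7:91247985-91248322 (between genes), chr7:119935272-119935606 (intron) and chr21:34144074-34144415 (an active promoter state at *PAXBP1*). PITPNC1 is a shared region at chr17:65421173-65421514, in an intron, where the DNMT3B pileup was the higher.
MTERF1: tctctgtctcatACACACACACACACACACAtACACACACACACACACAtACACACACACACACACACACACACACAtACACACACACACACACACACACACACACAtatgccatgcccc
KCND2: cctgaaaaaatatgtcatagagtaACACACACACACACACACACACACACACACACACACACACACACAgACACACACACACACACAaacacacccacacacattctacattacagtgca
PAXBP1: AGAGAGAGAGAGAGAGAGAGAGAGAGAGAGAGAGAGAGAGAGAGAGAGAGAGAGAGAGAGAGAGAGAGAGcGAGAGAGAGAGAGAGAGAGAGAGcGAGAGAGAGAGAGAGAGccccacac
PITPNC1: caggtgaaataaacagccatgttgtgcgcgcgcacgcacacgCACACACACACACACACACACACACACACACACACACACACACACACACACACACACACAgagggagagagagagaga

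In the second group capitals mark CpG pairs. DANT2 is a shared region in an enhancer state, P4HA1 an OCT1-specific peak in an intron, and they stand for strong peaks with no such run. They lie at chrX:115004437-115005280 and chr10:74777664-74778082. The last sequence, with the octamer in capitals on the minus strand, is from the first OCT1-specific peak, going down by pileup, with an octamer inside the printed window, at chr4:190585267-190586437, 2628 bp from *LINC01262*.
DANT2: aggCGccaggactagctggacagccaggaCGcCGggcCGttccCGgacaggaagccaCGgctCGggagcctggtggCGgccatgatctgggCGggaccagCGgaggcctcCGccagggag
P4HA1: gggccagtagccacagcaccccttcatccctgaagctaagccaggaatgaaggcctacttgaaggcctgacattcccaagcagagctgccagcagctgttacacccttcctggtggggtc
LINC01262: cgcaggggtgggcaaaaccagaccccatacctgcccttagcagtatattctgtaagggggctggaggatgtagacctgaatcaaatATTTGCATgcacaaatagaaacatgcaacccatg

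Sharing was lopsided. Of the OCT1 peaks, 7588 (9.23%, interval 9.04% to 9.43%) shared a base with a DNMT3B peak, and of the DNMT3B peaks 7773 (49.0%, 48.2% to 49.8%) shared a base with an OCT1 peak. Merged into regions, the lists gave 7042 shared regions, 74599 OCT1-specific peaks and 8082 DNMT3B-specific peaks, which were 7.85%, 83.1% and 9.01% of 89723 regions. Among the shared regions 6160 joined 1 OCT1 peak with 1 DNMT3B peak, and 882 joined several peaks of a list. The overlaps were broad rather than marginal. A median of 96.7% of the shorter peak was covered, and the summits lay a median of 116 bp apart (quartiles 37.0 and 240 bp). An OCT1 summit stood within 100 bp of 3551 shared DNMT3B peaks (45.7%). Few specific peaks were near misses: 1466 OCT1-specific peaks (1.97%) and 1024 DNMT3B-specific peaks (12.7%) had the other antibody within 200 bp. The imbalance moved with the number of peaks: with only the 15855 strongest OCT1 peaks kept, 27.4% of OCT1 and 29.7% of DNMT3B peaks were shared.

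The lists differed in their number of peaks more than in the peaks' size and height. The median peak was 258 bp long for OCT1 and 255 bp for DNMT3B, and the median pileup was 15.0 reads in both. The highest pileups were 399 and 400, at the same repetitive region, chr6:58776079-58779525. OCT1 peaks covered 26.1 Mb and DNMT3B peaks 5.38 Mb. A pileup over 20 was reached by 4799 OCT1 peaks (5.84%) and by 1830 DNMT3B peaks (11.5%). The deposited background of 3.50 reads for OCT1 and 3.20 for DNMT3B implies pooled depths of 47.2 M and 43.2 M reads. The depth of the single libraries is unknown.

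Sharing climbed with pileup in both lists. OCT1 peaks with 11 to 14 reads were shared in 3.15% of cases (843 of 26792), those with 21 to 25 reads in 39.1% (1342 of 3433) and those with 31 to 50 reads in 98.7% (551 of 558). DNMT3B peaks with 11 to 14 reads were shared in 37.0% of cases (1933 of 5231), those with 21 to 25 reads in 76.1% (632 of 831) and those with 31 to 50 reads in 93.5% (373 of 399). All 280 OCT1 peaks and all 250 DNMT3B peaks over 50 reads were shared. Between 31 and 50 reads, 7 OCT1 peaks and 26 DNMT3B peaks stood alone.

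**Figure D1:**
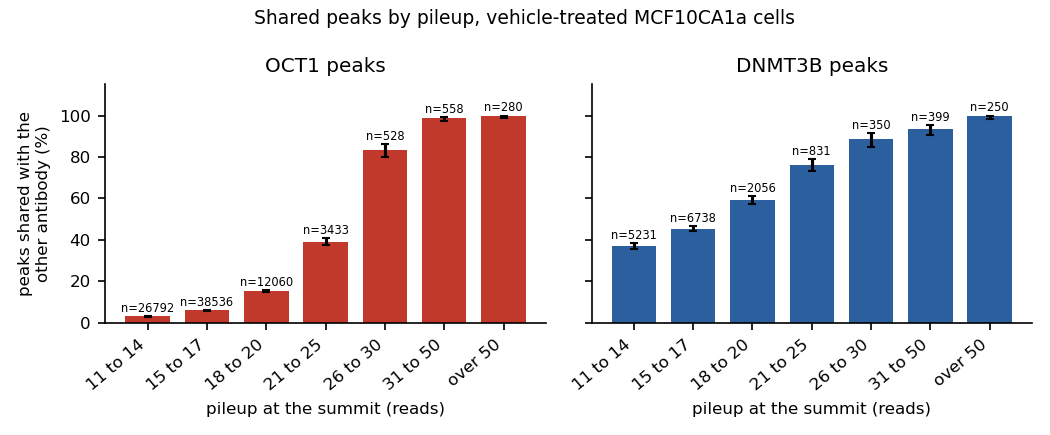
Share of peaks (%) that share at least 1 base with the other antibody, by pileup at the summit (reads), for OCT1 (left) and DNMT3B (right). Error bars are Wilson intervals and n is the number of peaks. The bars climb to 100% over 50 reads in both panels, and below 18 reads OCT1 bars stay under 6% while DNMT3B bars lie between 37.0% and 45.4%.

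Chromatin states were taken by the authors from normal human mammary epithelial cells (HMEC), which are not the cells studied, and every state listed for a peak was counted. Repetitive states set the shared peaks apart from the specific ones. They held 12.6% of shared OCT1 peaks (958 of 7588) and 0.428% of OCT1-specific peaks (319 of 74599), and 11.7% of shared DNMT3B peaks (909 of 7773) against 3.54% of DNMT3B-specific peaks. Peaks with no state, on sequences other than chromosomes 1 to 22 and X, had the same pattern, with 10.8% of shared and 0.370% of specific OCT1 peaks and 11.1% of shared and 2.18% of specific DNMT3B peaks. Heterochromatin, a state of low signal, was the largest class of specific peaks, with 49.1% of OCT1-specific and 49.6% of DNMT3B-specific peaks. It held 32.8% of shared OCT1 peaks and 31.8% of shared DNMT3B peaks.

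Promoters and enhancers differed less. Promoter states, which mark transcription starts, held 6.62% of shared and 6.75% of specific OCT1 peaks, and 6.03% of shared but 3.69% of specific DNMT3B peaks. Enhancer states, which mark distal regulatory DNA, held 18.1% of shared and 16.6% of specific OCT1 peaks, and 17.3% of both shared and specific DNMT3B peaks. Over 20 reads the order turned for OCT1, with 14.7% of shared and 17.1% of specific peaks in enhancer states (intervals 13.4% to 16.1% and 15.5% to 18.7%), and DNMT3B had 7.16% of shared and 12.1% of specific peaks there. Where both partners of an overlap had to reach 20 reads, the shares were 6.92% and 19.5% for OCT1 and 6.86% and 12.8% for DNMT3B. Strong enhancers of state 5 were 6.84% of shared and 4.57% of specific OCT1 peaks. Transcribed states ranged from 26.1% to 29%, and Polycomb-repressed states from 2.67% to 4.09%, over the 4 classes. Read within a state, 61.1% of the DNMT3B promoter peaks (469 of 767) were shared, against 49.0% of its enhancer peaks (1345 of 2745) and 38.1% of its heterochromatin peaks (2474 of 6486). The intervals of these 3 shares did not overlap. For OCT1 the same shares were 9.06%, 9.96% and 6.36%. In repetitive states 75% of OCT1 peaks and 76.1% of DNMT3B peaks were shared, and there the median pileup was 23 and 22 reads against 15 in heterochromatin.

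**Figure D2:**
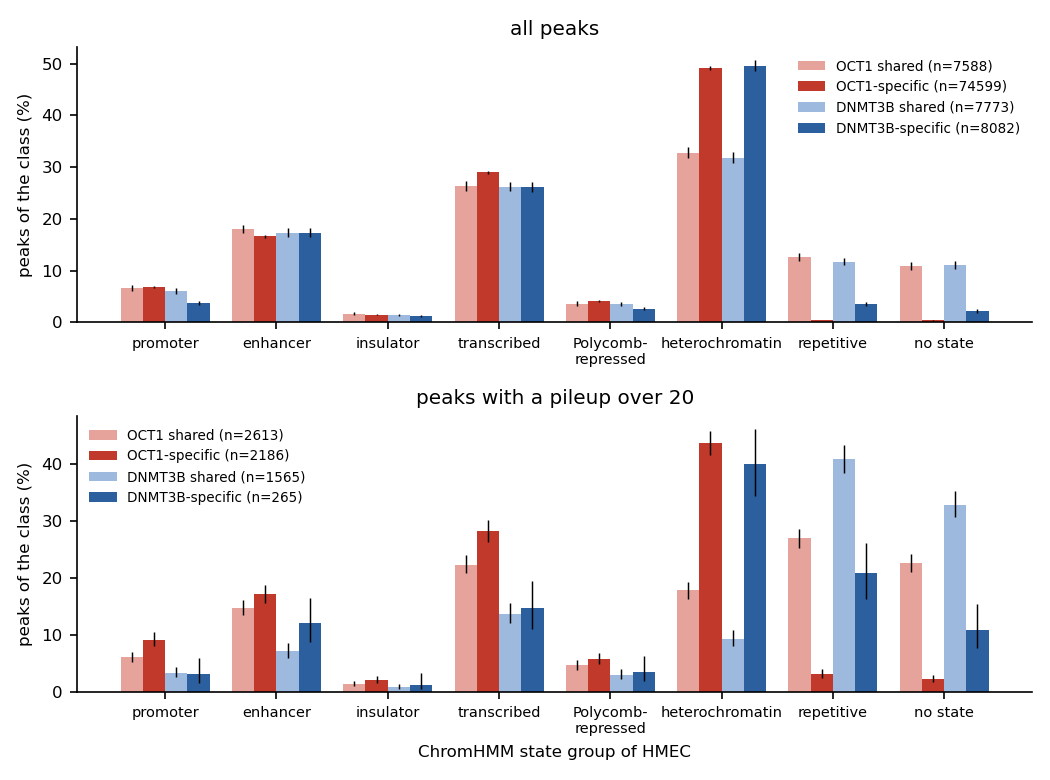
Share of peaks (%) in each HMEC ChromHMM state group for shared and specific peaks of OCT1 and of DNMT3B, over all peaks (top) and over peaks with a pileup over 20 (bottom). Error bars are Wilson intervals. Repetitive states and sequences with no state hold more of the shared peaks, and heterochromatin more of the specific peaks, in both panels.

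With the pileup held over 20, repetitive states held 26.9% of shared OCT1 peaks, 3.11% of OCT1-specific peaks, 40.8% of shared DNMT3B peaks and 20.8% of DNMT3B-specific peaks. The difference between shared and specific peaks in these states was present at high pileup too.

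Most peaks of every class lay far from a transcription start. The median distance from the summit to the start of the assigned gene was 40 kb for shared OCT1 peaks, 28.8 kb for OCT1-specific peaks, 38.5 kb for shared DNMT3B peaks and 44.6 kb for DNMT3B-specific peaks. Within 1 kb of a start lay 6.52% of shared OCT1, 7.08% of OCT1-specific, 6.31% of shared DNMT3B and 4.00% of DNMT3B-specific peaks. The DNMT3B-specific share was thus the lowest, and its interval (3.59% to 4.45%) overlapped none of the other 3. Inside the assigned gene lay 56.7% of OCT1-specific peaks and 51.3% of DNMT3B-specific peaks.

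Both antibodies were crowded in a few bins of the genome. Of the 1 Mb bins of chromosomes 1 to 22 and X, 172 (5.63%) had 100 or more OCT1 peaks. These held 49.7% of the OCT1 peaks and 69.0% of the DNMT3B peaks, and 58 of them were on chromosome 9, 38 on chromosome 5, 30 on chromosome 1 and 27 on chromosome 3. Chromosome 9 had 117 OCT1 and 29.7 DNMT3B peaks per Mb, and chromosome X 3.61 and 0.541. DNMT3B peaks were shared in 52.7% of cases in the crowded bins, in 36.8% where a bin had 30 to 99 OCT1 peaks, in 32.6% at 10 to 29 and in 18.8% at 1 to 9. OCT1 peaks were shared in 13%, 4.42%, 3.16% and 2.14% of cases over the same bins. The number of OCT1 peaks in a bin and the share of DNMT3B peaks with an overlap therefore moved together, and their link was not tested.

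**Figure D3:**
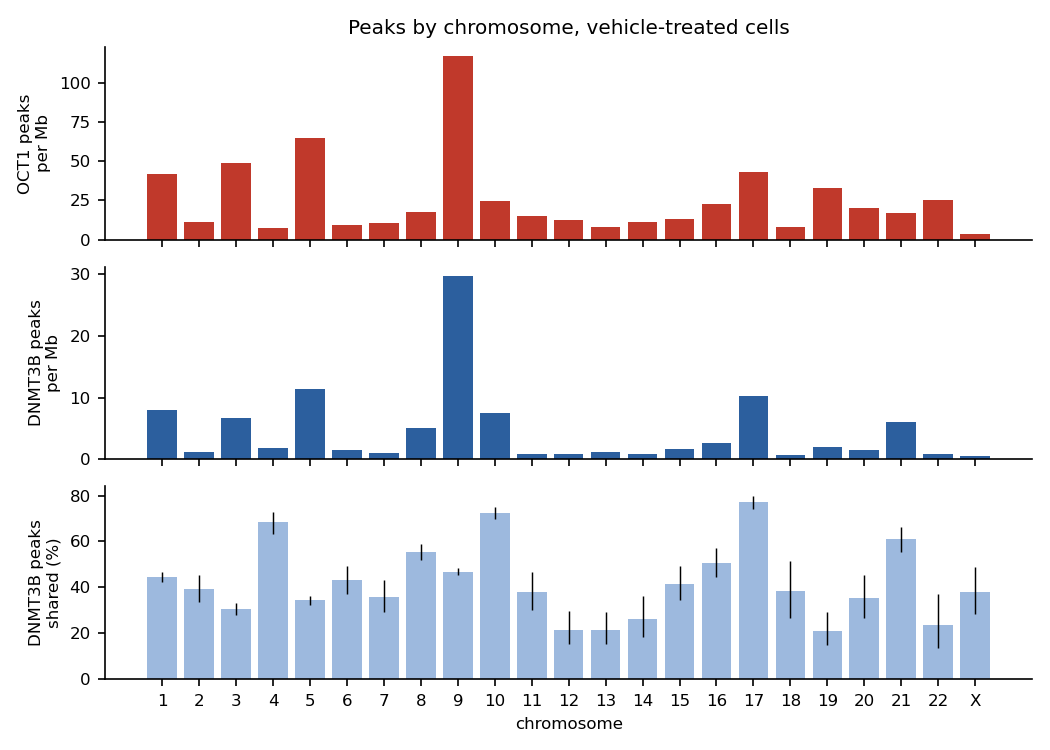
OCT1 peaks per Mb (top), DNMT3B peaks per Mb (middle) and the share of DNMT3B peaks that share a base with an OCT1 peak (bottom, %, Wilson intervals), by chromosome. Chromosome 9 is highest for both antibodies, and chromosomes 17, 10 and 4 have the largest shared parts, from 68.3% to 77.3%.

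The densest bin, chr10:73000001-74000000, holds *CDH23*, a cadherin gene known from the hair cells of the ear. It had 854 OCT1 peaks, 44.3% of them shared, and 513 DNMT3B peaks, 85.0% of them shared. The bin chr17:17000001-18000000 held 703 and 396 peaks, of which 43.8% and 87.9% were shared. A bin as crowded in OCT1 peaks could still hold few DNMT3B peaks. The bin chr5:149000001-150000000 held 528 OCT1 peaks but 63 DNMT3B peaks, with 6.44% and 52.4% shared. By chromosome the DNMT3B share ran from 21% on chromosome 19 (25 of 119 peaks) to 77.3% on chromosome 17 (649 of 840).

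Where both antibodies had a peak, their pileups were close, in part because both had to reach 11 reads. Each pileup was divided by the background of its list and the ratio of OCT1 to DNMT3B taken per region, with an exact interval that treats pileups as counts. The median ratio over the 7042 shared regions was 1.03 (interval of the median 1.02 to 1.03), and the middle 50% of regions lay between 0.868 and 1.18. Pearson's r of the log2 pileups was 0.83 across these regions, a description only, since the regions share libraries and a lower limit of 11 reads. Only 10 regions (0.142%) reached a ratio of 2 or more, and 27 (0.383%) a ratio of 0.5 or less. The interval lay above 1 in 36 regions and below 1 in 63. Without division by the background, 37 regions reached 2 and 16 fell to 0.5 or less, so which side had more regions depended on that scaling. By state the median ratio was 1.07 in promoters, 1.05 in enhancers, 1.10 in Polycomb-repressed states and 0.924 in repetitive states. A weak region could hardly pass 2-fold with at least 11 reads on both sides, so the small shares past 2-fold partly follow from that floor. In the 871 regions over 30 reads in either list, the median was 1.01 (quartiles 0.831 and 1.27). Of these, 8 reached 2 or more and 23 fell to 0.5 or less.

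Of the 10 regions higher for OCT1, 5 lay on chromosome 1 and 4 in repetitive states. *TTC34*, a gene of tetratricopeptide repeats, gave 3 of the 10, with 76 OCT1 against 29 DNMT3B reads (ratio 2.40, 1.54 to 3.81), 40 against 17 and 95 against 43. *NBPF1*, of a primate gene family, had 35 against 14 reads, and *CROCCP2*, a pseudogene of rootletin, 33 against 14. Away from chromosome 1 stood an enhancer region assigned to *CCDC171*, with 27 against 12 reads (2.06, 1.01 to 4.46), a *CDH23* intron with 29 against 13, and *KCNJ12*, a potassium channel gene, with 40 against 18. None of the 9 on chromosomes 1 to 22 and X held a CA/TG run of 20 bases.

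The regions higher for DNMT3B were different in sequence. Of the 27, 14 held a CA/TG run of at least 20 bases in the 200 bp around the summit, and 20 held a tandem repeat of at least 24 bases with a unit of 1 to 6 bases. The lowest ratio was 0.289 (0.160 to 0.498), with 18 OCT1 against 57 DNMT3B reads near *ISX-AS1*, on a GA/TC run of 55 bases. *CNIH3*, for a subunit that accompanies glutamate receptors, had 19 against 58 reads (0.299, 0.168 to 0.510) on a CA/TG run of 41 bases. *SHANK2*, a synaptic scaffold gene, had 26 against 59 reads, and *LSG1*, for a GTPase of ribosome assembly, 47 against 93. The 3 in promoter states were *PRDM6*, a repressor gene of smooth muscle, with 12 against 28 reads, *KCNH2*, a cardiac potassium channel gene, with 19 against 37, and *SPTBN4*, a spectrin gene, with 18 against 33, and all held a CA/TG run. Of the 7 in enhancer states, *SPTBN4* again, *C2CD4D* (21 against 50), *ZP4* (26 against 58) and *KLF10* (20 against 44, 74821 bp from the gene) lay on such a run. The rest, *LOC101927043* (14 against 29), *ELFN2* (21 against 42, 11379 bp from the gene) and *FAM120B* (16 against 30), held none. Over all shared regions, the 92 with a CA/TG run had a median ratio of 0.693 (0.662 to 0.762), and the 6242 without one on chromosomes 1 to 22 and X had 1.03. The 273 shared regions with a tandem repeat of at least 24 bases had a median ratio of 0.836 (0.807 to 0.860).

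**Figure D4:**
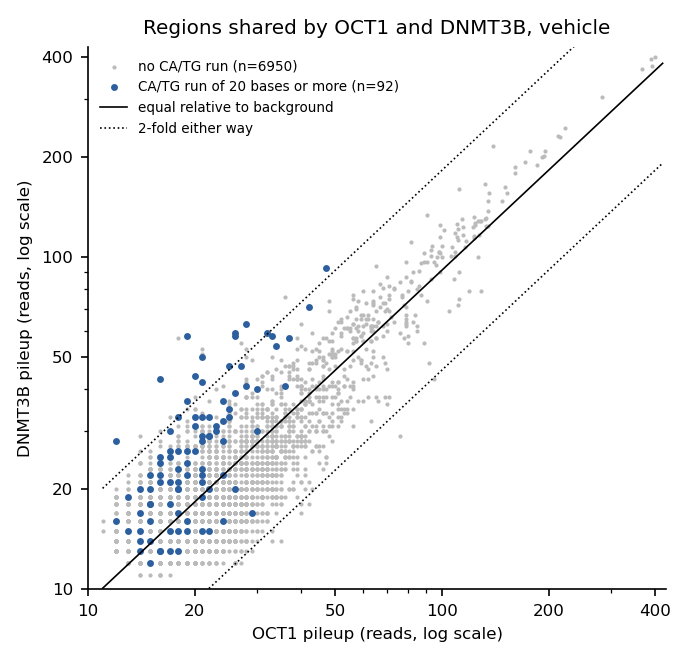
Pileup of DNMT3B (reads, log scale) against pileup of OCT1 (reads, log scale) in the 7042 shared regions, with the 92 regions that hold a CA/TG run of at least 20 bases in blue. The solid line marks equal pileup relative to background and the dotted lines a 2-fold difference. The blue points lie mostly above the solid line, and their median ratio is 0.693.

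CA/TG runs were far more frequent in strong DNMT3B-specific than in strong OCT1-specific peaks, a search that was added after the sequences of the strongest peaks had been seen and that covers chromosomes 1 to 22 and X. Among peaks over 20 reads such a run lay in 40.9% of DNMT3B-specific peaks (96 of 235, interval 34.8% to 47.2%), in 5.53% of shared DNMT3B peaks (58 of 1049), in 1.78% of shared OCT1 peaks (36 of 2023) and in 0.0936% of OCT1-specific peaks (2 of 2136). Over all 200 bp windows of chromosomes 1 to 22 and X the share was 0.480%. Tandem repeats of at least 24 bases, which include such runs, lay in 43.4% of DNMT3B-specific and 0.702% of OCT1-specific peaks over 20 reads. The DNMT3B-specific share was 0.367% at 11 to 14 reads, 8.42% at 18 to 20, 32.0% at 21 to 25, 58.3% at 26 to 30 (21 of 36) and 79.2% over 30 (19 of 24). In OCT1-specific peaks it was 0.181% at 11 to 14 reads and 0.0978% at 21 to 25, and none of the 84 peaks at 26 to 30 reads held a run (interval up to 4.37%).

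The runs sat under the summits. In 73 of the 96 DNMT3B-specific peaks the summit lay inside the run (76.0%), and the largest distance was 73 bp. The median run was 47.0 bases long (45 in the KCND2 sequence shown above), inside peaks with a median length of 327 bp. The runs were spread over gene-related states as well as silent ones. They lay in 64.2% of the DNMT3B-specific heterochromatin peaks over 20 reads (68 of 106), in 15 of 32 enhancer peaks, 4 of 8 promoter peaks and 12 of 39 transcribed peaks, but in none of 54 peaks in repetitive states. GA/TC runs of at least 20 bases, as in the PAXBP1 sequence, lay in 5.53% of the DNMT3B-specific peaks over 20 reads and in none of the 2136 OCT1-specific ones, and a peak could hold both kinds of run.

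**Figure D5:**
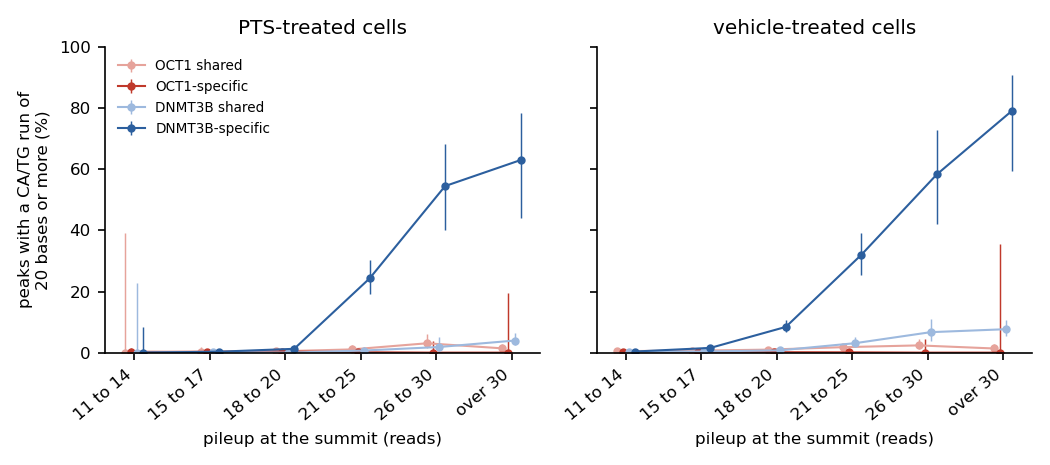
Share of peaks (%) with a CA/TG run of at least 20 bases within 200 bp around the summit, by pileup (reads), for shared and specific peaks of both antibodies in the lists of PTS-treated cells (left) and vehicle-treated cells (right). Error bars are Wilson intervals. In vehicle-treated cells the DNMT3B-specific line climbs to 79.2% over 30 reads, while OCT1-specific peaks stay under 0.2% in every bin up to 25 reads and at 0 above.

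The same counts, read the other way, give the shared part of the peaks with a run. Among DNMT3B peaks over 20 reads, 37.7% of those with a run were shared (58 of 154) and 87.7% of those without (991 of 1130). Over 30 reads, 31 of the 50 DNMT3B peaks with a run were shared, and 373 of the 378 without. Most of the highest DNMT3B peaks on a run were thus shared, though still less often than those without a run. Among OCT1 peaks over 20 reads, 36 of the 38 with a run were shared, against 48.2% of those without (1987 of 4121). So strong OCT1 peaks on such runs were rare, and nearly all of them lay in a DNMT3B peak.

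Base composition ran the other way from class to class. Mean GC content of the 200 bp windows was 51.9% in shared OCT1 peaks, 54.4% in OCT1-specific peaks, 51.2% in shared DNMT3B peaks and 48.2% in DNMT3B-specific peaks, against 40.9% over the genome. CpG pairs, the substrate of DNMT3B, averaged 3.83, 4.34, 3.60 and 2.60 per window in these classes, and 1.96 over the genome. Over all pileups the DNMT3B-specific peaks were thus the poorest in CpG of the 4 classes and still above the genome. This changed with pileup. Their mean was 2.06 over 20 reads and 1.42 over 25 reads (60 peaks), the latter below the genome.

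The octamer did not mark OCT1 peaks. ATGCAAAT on either strand was found in 0.577% of shared OCT1 windows (39 of 6764), 0.488% of OCT1-specific windows (363 of 74322), 0.753% of shared DNMT3B windows and 0.923% of DNMT3B-specific windows (73 of 7905), and in 2.02% of all genome windows of that length. With 1 mismatch allowed the shares were 12.5%, 9.50%, 13% and 16%, and 25.2% over the genome. The order of the classes followed their GC content in reverse, and the part of base composition in these shares was not tested. A missing octamer says only that these letters are not in the window.

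Named regions show what the classes held. Each is named by its assigned gene, and some lay far from that gene. The strongest shared regions in promoter states were assigned to *LOC654342* (53 OCT1 and 35 DNMT3B reads, 44890 bp from the gene) and *LINC01410* (51 and 35). *ZNF595*, a zinc finger gene at the end of 4p, had 44 and 40, and 46 and 34. *RNVU1-18*, a variant U1 small nuclear RNA gene, had 41 and 33, and *NBPF9* 42 and 30, at 83178 bp from the gene. At 5 of the 6 a repetitive state was listed too, *RNVU1-18* being the exception. Shared enhancer regions were led by those of the noncoding RNA genes *LINC00854* (129 and 79 reads, ratio 1.49, 1.12 to 2.00), *DANT2* (85 and 62) and *LINC00910* (64 and 52). Those assigned to *LOC654342* had 62 and 46 reads at 14969 bp from the gene, and 47 and 40 at 51219 bp. One lay 11683 bp from *TNNT2*, the cardiac troponin T gene (33 and 58, ratio 0.520, 0.329 to 0.811). Among these 6 regions only the *TNNT2* region lay on a CA/TG run, of 33 bases. Shared regions in transcribed states were led by one 16245 bp from *LINC00854* (119 and 79). *SENP5*, for a SUMO protease (91 and 97), and a region 130678 bp from *CYTOR* (112 and 75) followed.

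OCT1-specific promoter peaks were lower than the shared ones. They were led by *RNA5S6*, a 5S ribosomal RNA gene, with 32 reads, *DENND4C*, for an activator of Rab GTPases, with 31, *SRGAP2-AS1* with 29, and *ESPNP*, *LOC388692* and *LOC100132249* with 27 each. GC content of these 6 windows was 55.5% to 72.0%, and none held a CA/TG run. OCT1-specific enhancer peaks were led by *SEMA4D*, a semaphorin gene, with 27 reads, and by *C1orf186*, *PDXDC1*, *LCMT1*, *PPARGC1B* and *CASC21* with 26 each. Transcribed ones were led by *P4HA1*, for a collagen prolyl hydroxylase, with 33, and by *C17orf51* (105251 bp from the gene) and *GUSBP1* with 30. The highest OCT1-specific peak of any state had 48 reads, in a repetitive state 60283 bp from *FCGR2A*.

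DNMT3B-specific promoter peaks were led by *PAXBP1* with 34 reads on a GA/TC run of 89 bases and *CASC3*, for a core protein of the exon junction complex, with 33 reads on a CA/TG run of 57 bases. A peak 17990 bp from *MYOC* followed with 23 reads, and *LOC388692* and *SLC12A2*, a chloride cotransporter gene, had 22. *RHOC*, for a small GTPase of the cytoskeleton, had 21 on a CA/TG run of 74 bases. DNMT3B-specific enhancer peaks were led by *ZNF521* (39 reads, 28094 bp from the gene), *RAPGEF6* (36) and *RYR2*, a calcium release channel gene of heart muscle (33). *PLEKHG3*, *FOXJ1* (14857 bp from the gene) and *SLC9A7* followed with 30 each. All of these but *ZNF521* held a CA/TG run, of 32 to 69 bases. Transcribed ones beside *RYR2* were *KIAA1671* (32 reads) and *SMG6*, for a nuclease of nonsense-mediated decay (31), on runs of 56 and 59 bases. The highest DNMT3B-specific peak of any state had 43 reads, 253868 bp from *MTERF1*. Of the 25 highest specific peaks of each antibody, none of the OCT1 ones and 20 of the DNMT3B ones held a CA/TG run.

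Most genes with a DNMT3B peak also had an OCT1 peak, in lists where OCT1 peaks alone reached 57.3% of all protein-coding genes of RefSeq. The authors' assignment gave 15123 genes with an OCT1 peak and 3723 with a DNMT3B peak, and 3433 genes had both. These were 22.7% of the OCT1 genes and 92.2% of the DNMT3B genes, and 290 genes had a DNMT3B peak only. From a pileup of 20 up, 431 genes had both and 183 a DNMT3B peak only. A gene in common did not mean a region in common. Of the 3433 genes 1525 (44.4%) held a shared region and 1908 did not. Genes with the most shared regions were *CDH23* (155, from 425 OCT1 and 219 DNMT3B peaks), *PVT1*, the noncoding RNA gene beside *MYC* (137, from 316 and 203), *PDE4DIP* (114, from 155 and 169), *CWH43* and *LOC100505874* (75 each). Genes with the most OCT1-specific peaks were *KDM4C*, a histone demethylase gene (252), *CDH23* (251), *PTPRD*, a receptor phosphatase gene (215), *FSTL4* (210, beside 29 DNMT3B peaks) and *BNC2* (188). Genes with the most DNMT3B-specific peaks were *PTPRD* (84), *GLIS3* (76), *KDM4C* (71), *ADAMTSL1* (59) and *SMARCA2*, an ATPase gene of the SWI/SNF complex (58).

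Gene lists were read against all protein-coding genes of RefSeq, of which 57.3% had an OCT1 peak, 14% a DNMT3B peak and 5.51% a shared region. Neither these shares nor the counts of the lists were adjusted for gene length. Genes were matched by symbol, and 14055 of the 15413 genes with an OCT1 or DNMT3B peak matched a RefSeq symbol. A RefSeq gene listed under another symbol therefore counts as having no peak, which can lower the reference shares. Reads given for a gene are its highest OCT1 and its highest DNMT3B pileup, which can lie at different places. Textbook OCT1 targets did not stand out for OCT1. Of 18 histone H2B genes 5 had an OCT1 peak (27.8%), *HIST1H2BL* the highest with 16 reads, and 1, *HIST2H2BF*, had a DNMT3B peak, with none shared. Of 37 small nuclear RNA genes, which are not protein-coding, 15 had an OCT1 peak (40.5%), 9 a DNMT3B peak (24.3%) and 8 a shared region (21.6%). The highest were U1 genes and variants of chromosome 1, *RNVU1-18* with 41 and 33 reads, *RNU1-2* with 26 and 24, *RNU1-1* with 26 and 19 and *RNVU1-17* with 25 and 24.

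Genes of the POU and octamer machinery had an OCT1 peak in 9 of 14 cases and a DNMT3B peak in 2. *SNAPC3*, for a subunit of the factor that starts small nuclear RNA transcription, carried 55 OCT1 and 23 DNMT3B peaks and 15 shared regions, and *POU2F1* itself 18 and 3 with none shared. Of 18 genes of DNA methylation 15 had an OCT1 peak and 4 a DNMT3B peak, and only *MBD4*, a repair glycosylase gene, held a shared region (19 and 17 reads). *DNMT1*, *DNMT3A*, *DNMT3B* and *DNMT3L* had 6, 7, 2 and 2 OCT1 peaks and no DNMT3B peak, while *TET3* had 16 OCT1 and 22 DNMT3B reads at different places.

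Known DNMT3B targets gave a divided picture. Of 26 germline genes 13 had an OCT1 peak and 2, *MAEL* and *TEX14*, a DNMT3B peak (7.69%), with none shared. Of 15 genes of the D4Z4 repeat and of 4q35, 3 had a peak of each antibody, and *DUX4*, which lies in a macrosatellite, had 59 OCT1 and 58 DNMT3B reads in shared regions.

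Chromatin regulators had an OCT1 peak in 19 of 27 genes, a DNMT3B peak in 8 and a shared region in 3. *KMT2C*, a histone methyltransferase gene with partial copies elsewhere in the genome, had 43 and 34 reads and 17 shared regions, *SMARCA2* 24 and 22 reads and 51 shared regions, and *NSD1* 1 shared region among 55 OCT1 peaks. Notch pathway genes had an OCT1 peak in 16 of 19 cases, a DNMT3B peak in 3 and a shared region in 1, *NOTCH2NL* (34 and 25 reads). Wnt pathway genes had them in 36, 8 and 2 of 40. The 2 were *TCF7*, a transcription factor gene (23 and 20 reads, 9 shared regions), and *NLK*, a kinase gene (22 and 33 reads, on a CA/TG run of 50 bases). Of 31 calcium channel and transport genes 28 had an OCT1 peak, 11 a DNMT3B peak (35.5%) and 5 a shared region. *CACNA1C*, an L-type channel gene, had 62 and 65 reads, *CACNA2D1* 24 and 32, and *RYR2* a DNMT3B peak only.

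Breast cancer oncogenes, some of which the study chose on these samples, had an OCT1 peak in 24 of 25 genes, a DNMT3B peak in 12 (48%) and a shared region in 7 (28.0%). The 7 were *MYC* (29 and 20 reads), *HRAS* (25 and 15), *JAK2* (32 and 24, both outside its shared regions), *PVT1* (29 and 22, in different regions), *PANX1* (51 and 36), *SREBF1* (31 and 21) and *RPTOR* (45 and 24). *PVT1*, *JAK2*, *PANX1*, *SREBF1* and *MAML2* are also genes that the study names. All of these had a DNMT3B peak and all but *MAML2* a shared region, so the shares of this list are no independent evidence. *HRAS* is also the gene used to transform the parent line, and its 1 OCT1 peak and 4 DNMT3B peaks formed 1 shared region. *ERBB2*, *EGFR*, *PIK3CA*, *CCND1* and *ESR1* had OCT1 peaks of 16 to 19 reads and none of DNMT3B. Tumor suppressors had an OCT1 peak in 15 of 23 genes, a DNMT3B peak in 3 (*CHRDL1*, *NOX5* and *SALL3*) and a shared region in 1. These 3 are also genes that the study names on these samples, and none of the other 20 had a DNMT3B peak.

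Mammary epithelial genes had an OCT1 peak in 22 of 25 cases, a DNMT3B peak in 9 (36.0%) and a shared region in 2, among them *KRT8*, a keratin gene of luminal cells (16 and 13 reads). Mesenchymal genes had them in 13, 8 and 1 of 16, the shared one being *TGFBI* (20 and 19). Lists of other tissues served for reference. Liver genes had them in 6, 3 and 0 of 16, neuronal genes in 12, 3 and 1, and immune cell genes in 9, 1 and 1. Counts of DNMT3B genes were small in every list, and none of these lists was tested.

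The genes that the study names with peaks fell on both sides of the repeat pattern. They were chosen on these samples, so their counts (24 of 25 with an OCT1 peak, 24 with a DNMT3B peak and 20 with a shared region) are no independent evidence. The strongest DNMT3B peak lay on a CA/TG run in 9 of the 24. These were *PITPNC1*, for a lipid transfer protein (27 OCT1 and 47 DNMT3B reads), *ZP4* and the overlapping *LOC100130331* (26 and 58), *TNNT2* (33 and 58), *CUX1* (21 and 28), *NLK*, *RYR2* (33 DNMT3B reads), *CHRDL1* (29) and *NOX5* (22). *ZP4* and *LOC100130331* have the same strongest peak, as do *MIR4477A* and *MIR4477B*, so the genes counted are not all distinct peaks. The OCT1 peaks of *CHRDL1* and *NOX5*, with 15 and 16 reads, lay elsewhere and held no run. No run lay under *DANT2*, *LINC00910*, *LOC102724511* (29 and 31), *LOC102724580* (43 and 48), *MIR4477A* (79 and 62), *SNAR-A14* (31 and 24), *PANX1* or *SREBF1*. *JAK2*, the kinase gene, had its highest OCT1 peak (32 reads) and its highest DNMT3B peak (24 reads) at different places, beside 17 shared regions. *MAML2*, a Notch coactivator gene, had 15 and 16 reads with no base shared, and *SMARCA4*, an ATPase gene of the SWI/SNF complex, an OCT1 peak of 17 reads only.

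The lists of PTS-treated cells, which hold other libraries, show how far each class came back. Of the shared OCT1 peaks 51.8% overlapped an OCT1 peak and 31% a DNMT3B peak of PTS-treated cells, and of the OCT1-specific peaks 6.46% and 1.01%. Of the shared DNMT3B peaks 49.6% overlapped an OCT1 peak and 29% a DNMT3B peak of PTS-treated cells, and of the DNMT3B-specific peaks 9.00% and 4.07%. These lists were shorter, with 16071 OCT1 and 4326 DNMT3B peaks and lowest pileups of 12.9 and 12.8, so weak peaks had less chance to recur. There 16.3% of OCT1 peaks and 62.1% of DNMT3B peaks were shared.

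Strong specific peaks recurred to different degrees in the lists of PTS-treated cells. Over 20 reads 27.6% of OCT1-specific peaks overlapped an OCT1 peak and 6.45% a DNMT3B peak, and 18.9% of DNMT3B-specific peaks overlapped an OCT1 peak and 31.7% a DNMT3B peak. Over 25 reads these shares were 58.9% and 18.9% for 95 OCT1-specific peaks and 22.7% and 69.7% for 66 DNMT3B-specific peaks. DNMT3B-specific peaks over 20 reads on a CA/TG run overlapped an OCT1 peak in 4 of 96 cases (4.17%) and a DNMT3B peak in 45 (46.9%), and those without a run in 25% and 19.3% of 140 cases. The run itself recurred as a feature of DNMT3B-specific peaks in PTS-treated cells, with 24.3% of peaks at 21 to 25 reads, 54.5% at 26 to 30 and 63.0% over 30, while it lay in 0.136% of OCT1-specific peaks at 21 to 25 reads and in none above.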

How the data were processed

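OCT1 and DNMT3B ChIP-seq lists of vehicle-treated MCF10CA1a cells were compared, with 3 biological replicates per antibody, grouped by the sample labels. After trimming with cutadapt and alignment to GRCh37/hg19 with the Burrows-Wheeler Aligner, the authors dropped duplicates and reads of low quality. They called peaks with MACS2 on pooled replicates at a fragment size of 200 bp, with pooled inputs as the background. Genes were assigned with ChIPseeker and states from the HMEC ChromHMM track. Their software versions are not given in the sources used here. Pileups, as deposited, give the signal at a summit in overlapping fragments of all replicates. In the PTS lists they are not whole numbers, and how they were scaled is not given in the sources used here. Fold enrichments, as deposited, are the ratio (pileup + 1) / (background + 1). The authors also deposited −log10 p-values from MACS2, and what they deposited as P-value and Q-value is a score, 10 to the power of −x/10 of the −log10 value. Pooled depth was computed from the background, the fragment size and an effective genome of 2700000000 bp.

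Lines were reduced to 1 per peak, and chromosome X entries split over columns were rejoined. The deposited distance is measured from the gene and is 0 inside it, so the distance to the start was computed from the deposited gene start, stop and strand and the summit. Shares have Wilson intervals and pileup ratios exact intervals. No test was made, since each list has 1 value per region. Sequence features were searched in 200 bp around the summit, on both strands and on chromosomes 1 to 22 and X, with all 14178079 windows of that length as the background. Gene positions came from GENCODE 44 lifted to GRCh37, and protein-coding genes from RefSeq.

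The members and gene lists were chosen with earlier results of these data known, and the repeat search was added after sequences had been seen. The regions named are, per class, the 6 strongest in promoter states, 6 in enhancer states and 3 in transcribed states, the 5 genes with the most peaks, genes the study names with peaks, and in each gene list up to 4 members by pileup. Other members named, and regions past the 2-fold limits, were chosen after their values were seen. Alternatives were other overlap rules, pileup limits, sequences, states, scalings and run lengths. Python 3.11.15 was used with numpy 2.4.6, pandas 2.3.3, scipy 1.17.1, pysam 0.24.0, numba 0.67.0 and matplotlib 3.10.9, and the code was tested on simulated data. Raw reads, IgG fractions and input libraries were not analysed here.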

Additional observations from a re-analysis of the deposited data

How the results depend on the processing

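No paired analysis was possible because the 3 replicates are pooled in each list, and for the same reason no replicate could be left out. Over all alternatives, 19 values moved by less than their interval or, for counts, by less than 1.5 times, and 68 moved further. The order of the groups turned for enhancer shares of OCT1, for octamer shares and for the counts of regions past 2-fold.

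The share of OCT1 peaks and of DNMT3B peaks with an overlap was 7.79% and 42.0% with at least 50% of the shorter peak shared, 4.32% and 22.4% with summits at most 100 bp apart, and 11% and 55.5% with gaps of up to 200 bp allowed. It was 9.59% and 50.6% from a pileup of 15 up, 21.5% and 67.6% from 20 up, and 49.0% and 77.7% at a deposited P-value score under 0.05. With only as many OCT1 peaks as DNMT3B peaks, taken from the highest pileup down, it was 27.4% and 29.7%, so the 2 shares were then close. It was 8.34% and 46.6% on chromosomes 1 to 22 and X, 7.27% and 43.9% without repetitive states and sequences with no state, and 8.61% and 47.5% with nearby peaks of a list merged.

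For shared OCT1, OCT1-specific, shared DNMT3B and DNMT3B-specific peaks in turn, enhancer states held 13.7%, 13.6%, 14.3% and 14.8% with the first listed state only, and 6.92%, 19.5%, 6.86% and 12.8% with a pileup of 20 or more asked of both peaks. There, enhancers held fewer shared than specific peaks of both antibodies. Repetitive states held 11.6%, 0.377% and 10.7% of the first 3 classes with the first state only, 11.1%, 0.373% and 10.8% with gaps allowed, and 43.0%, 3.27%, 40.9% and 19.7% of all 4 from a pileup of 20 up. The median distance to a start was then 56.4, 31.2, 52.3 and 60 kb. Genes with peaks of both antibodies then numbered 431, with OCT1 only 1594 and with DNMT3B only 183.

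The median pileup ratio was 1.12 with pileups as deposited, with 37 regions at 2 or more and 16 at 0.5 or less, so that the larger of these 2 counts changed sides. It was 1.04 from the deposited folds and 1.04 without repetitive states on chromosomes 1 to 22 and X, where 5 regions reached 2. In the same order of classes, octamers lay in 1.69%, 0.799%, 1.69% and 1.24% of whole peaks. With 1 mismatch they lay in 12.5%, 9.50%, 13% and 16% of windows. From a pileup of 20 up the shares were 0.296%, 0.524%, 0.400% and 0.475%, with overlapping intervals. The order of the classes thus changed in whole peaks and from a pileup of 20 up, where OCT1-specific windows had the highest share. Alternatives for CA/TG runs were chosen after seeing the data. Runs of at least 40 bases lay in 0.989% of shared OCT1, 3.43% of shared DNMT3B and 28.1% of DNMT3B-specific peaks over 20 reads. Over 25 reads, runs of at least 20 bases lay in 0% of OCT1-specific, 7.36% of shared DNMT3B and 66.7% of DNMT3B-specific peaks.

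Pooled replicates, states from other cells, a flat background in place of local input signal, and reads that cannot be placed between repeat copies limit all of these values. How many of the weak peaks would recur in a single replicate is unknown.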
